A study of Mus musculus with 4 samples.

Results

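A set of 10 genes of glucocorticoid activation and response were followed through lung sections of vaped and non-vaped mice. They comprised Hsd11b1, which encodes the enzyme that regenerates active glucocorticoid within cells, Nr3c1, which encodes the glucocorticoid receptor, and 8 genes listed as responding to the hormone, namely Tsc22d3, Fkbp5, Zbtb16, Sgk1, Cebpd, Errfi1, Klf9 and Arl4d. All 10 members were present among the 32285 genes of each count table. They were chosen by their measured levels in vaped against non-vaped sections, their levels over spots and their agreement with Hsd11b1, so these values are given as a description, and nothing is read from the calls of the members for vaped against non-vaped.

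The samples were upper pulmonary branches of 4 C57BL/6J mice, cut as cryosections and profiled on Visium slides, on which barcoded spots capture the mRNA of the tissue above them and each molecule is counted by its unique molecular identifier (UMI). Vaped (V) mice, 1 male and 1 female, had breathed e-vapor of Peach Ice 70VG/30PG juice from JUUL pens in whole body chambers, 5 days a week and 4 h a day, over 9 weeks, starting at an age of about 8 weeks. Their titles carry "0_Per", which the labels do not explain. The methods name the vaped spots the "0% vape group" without saying what the 0% refers to. Non-vaped (NV) controls were 1 male and 1 female, and the methods describe 1 supplier, housing and diet for the mice of the study without stating the age of these controls or whether they were placed in the chambers. Each mouse gave 1 section, so exposure, mouse and piece of tissue cannot be told apart within a sex.

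Between 473 and 2053 spots per section were deposited, with 6957392 to 34308556 UMIs in total and a median of 6259 to 11355 UMIs per spot. A spot counted as parenchyma if 6 marker genes (Calcrl, Cldn18, Hopx, Sftpb, Sftpc and Tmem100) took a share of its UMIs of at least 50% of their share over all spots. By this rule 684 of 842, 348 of 473, 1564 of 1565 and 1620 of 2053 spots were parenchyma, in the order NV male, NV female, V male and V female, and the V male section stood apart because it held 1 spot of other tissue. Cardiac muscle markers summed to 18.2 UMIs per 1000000 UMIs of the section (CPM) in the V male and to between 3673 and 7015 CPM in the other sections, and white adipocyte markers to 18.8 CPM against 796 to 7074 CPM. Club cell markers, which mark the airways that the tissue label names, summed to 287 CPM in the V male and to between 2244 and 12764 CPM in the others. None of the markers of these lists was at 0 in all sections. Each level is therefore given over the whole section and over parenchyma spots. The parenchyma spots were still unlike between sections. In the order above, they held 2938, 2099, 18.2 and 1768 CPM of cardiac muscle markers and 11257, 1247, 287 and 9368 CPM of club cell markers. A spot holds several cells, so fewer cells of a type and less RNA per cell cannot be told apart. Counts were taken from transcript ends and not divided by gene length, and levels are compared between sections, never between genes.

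As background, glucocorticoids such as corticosterone, the main form in mice, cross the cell membrane and bind a receptor held in the cytoplasm by heat shock proteins and co-chaperones. The bound receptor enters the nucleus, where it binds glucocorticoid response elements and raises or lowers transcription of nearby genes. The product of Hsd11b1 acts as a reductase that makes corticosterone from its inactive keto form, whereas that of Hsd11b2 runs the opposite reaction. In the lung, glucocorticoids are known for their part in maturation of the alveolus and for restraint of inflammation.

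Hsd11b1 (chr1:193221634-193264075, minus strand, GRCm38) was at 248 CPM (NV male), 240 CPM (NV female), 730 CPM (V male) and 240 CPM (V female). The V male was 2.94-fold above the NV male, while the females were level, with a ratio of V to NV of 0.999. In the parenchyma the levels were 297, 370, 730 and 340 CPM in the same order. The V male thus stood above the other sections in both, and the groups overlapped through the V female. Exact 95% Poisson intervals in the parenchyma, which cover counting error only, were 714 to 745 CPM for the V male and 285 to 390 CPM from the lowest to the highest bound of the others. H6pd, whose product supplies the cofactor that the reductase uses, was at 91.8, 103, 152 and 92.9 CPM over the whole sections. Hsd11b2 was at 0.85 to 1.60 CPM.

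Nr3c1, the receptor, hardly varied. Over the whole sections it was at 142 CPM (NV male), 125 CPM (NV female), 149 CPM (V male) and 133 CPM (V female), and at 149 to 159 CPM in the parenchyma of all sections. Nr3c2, which encodes the mineralocorticoid receptor, to which corticosterone also binds, was at 9.77 to 15.7 CPM.

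Over the whole section, 6 of the 8 response genes, all but Klf9 and Zbtb16, had the V male above and the V female below both NV mice. That order held for 23.1% of 14382 genes with a mean of at least 1 CPM. In the parenchyma it held for 13.3% of 14248 genes and for 3 members (Tsc22d3, Sgk1 and Cebpd). Tsc22d3 (chrX:140539528-140600659, minus strand), which encodes the glucocorticoid-induced leucine zipper, an inhibitor of inflammatory signalling, was at 290 CPM (NV male), 469 CPM (NV female), 844 CPM (V male) and 147 CPM (V female). The V male was highest and the V female lowest, 5.73-fold apart, with both NV mice between them. In the parenchyma the levels were 331, 656, 844 and 199 CPM, in the same rank order.

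Cebpd (chr16:15887286-15891031, plus strand), a transcription factor of acute responses, had the same order, with 150, 243, 407 and 58.2 CPM over the NV male, NV female, V male and V female sections and 173, 336, 407 and 75.4 CPM in the parenchyma. The V mice were 7.0-fold apart over the whole section, the widest gap among the 10 members. Errfi1 (chr4:150853919-150868892, plus strand), a feedback inhibitor of the epidermal growth factor receptor, was at 153, 228, 304 and 57.3 CPM. In the parenchyma it was at 170, 316, 304 and 77.9 CPM, so that the NV female was close to the V male, the NV male lay below both and the V female was lowest.

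Sgk1 (chr10:21882184-21999903, plus strand), a kinase that keeps the epithelial sodium channel at the cell surface, was at 112 CPM (NV male), 120 CPM (NV female), 183 CPM (V male) and 75.6 CPM (V female). Parenchyma levels were 133, 151, 183 and 93.7 CPM. The NV mice were close to each other and again lay between the V mice, which were 2.42-fold apart over the whole section.

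Windows around the annotated starts of 7 of the 10 members were held in the RefSeq table used here (GRCm38.p6, 250 bases before to 50 after each start), and were searched on both strands for the hexamer of the glucocorticoid response element, AGAACA or TGTTCT, to which each receptor of a dimer binds. Zbtb16, Cebpd and Nr3c1 were not among them. Of 32851 windows of the table, 19% held the hexamer, and 3 windows (0.00913%), those of Sgk1, Acnat2 and Gm35041, held the full element of AGAACA, 3 bases of any kind and TGTTCT. The Sgk1 window with the full element and the Tsc22d3 window with a hexamer are shown as examples. In them letters of the receptor's element can be read near the start of a response gene followed here. Hexamers are in capitals, 5' to 3' on the strand of the gene.
Sgk1, chr10:21993640-21993939, plus strand: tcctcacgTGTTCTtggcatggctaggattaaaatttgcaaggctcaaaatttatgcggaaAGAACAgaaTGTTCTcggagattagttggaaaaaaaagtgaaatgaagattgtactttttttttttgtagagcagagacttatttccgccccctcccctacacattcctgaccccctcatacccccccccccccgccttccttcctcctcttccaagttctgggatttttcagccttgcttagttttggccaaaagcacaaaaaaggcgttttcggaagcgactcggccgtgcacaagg
Tsc22d3, chrX:140600473-140600772, minus strand: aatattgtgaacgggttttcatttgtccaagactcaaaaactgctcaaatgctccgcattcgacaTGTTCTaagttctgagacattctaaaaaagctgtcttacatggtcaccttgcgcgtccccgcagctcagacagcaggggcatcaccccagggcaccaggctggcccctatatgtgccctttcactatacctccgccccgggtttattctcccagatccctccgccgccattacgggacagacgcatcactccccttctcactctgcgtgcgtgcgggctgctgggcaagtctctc
In the Sgk1 window hexamers began at positions -242, -189 and -180 from the start, of which the latter pair formed the full element. The Tsc22d3 window shown had 1 hexamer at -185, and the other windows of that gene held none. Another 2 of the 6 Sgk1 windows held 1 hexamer each, and the windows of Hsd11b1, Fkbp5, Errfi1, Klf9 and Arl4d held none. A match is a description of the letters and not a measured site.

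Fkbp5 (chr17:28399094-28517527, minus strand), a co-chaperone that lowers the affinity of the receptor for its ligand, was at 17.4, 25.6, 89.3 and 15.7 CPM, and Arl4d (chr11:101665541-101667832, plus strand), a small GTPase of the ARF family, at 37.0, 51.2, 191 and 33.7 CPM. In the parenchyma Fkbp5 was at 16.8, 25.7, 89.3 and 17.5 CPM and Arl4d at 38.0, 65.8, 191 and 46.1 CPM. Over the whole section the V male was 5.14-fold (Fkbp5) and 5.17-fold (Arl4d) above the NV male, the highest ratios among the members, and the V female was within or near the NV range. Klf9 (chr19:23141226-23168134, plus strand), a Kruppel-like transcription factor, was at 118, 192, 312 and 150 CPM. For Klf9 the V female lay between the NV mice over the whole section and in the parenchyma (123, 228, 312 and 169 CPM).

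Zbtb16 (chr9:48654297-48836222, minus strand), a zinc finger transcription factor, was the member with the fewest counts, 40, 15, 98 and 187 UMIs over the NV male, NV female, V male and V female sections. These gave 4.26, 2.16, 8.25 and 5.45 CPM, and 3.88, 1.59, 8.25 and 6.96 CPM in the parenchyma. It was the one member for which both V mice were above both NV mice, over the whole section and in the parenchyma, an order that 12.6% and 14.4% of genes with a mean of at least 1 CPM had. The 95% Poisson intervals of the V female (4.70 to 6.29 CPM) and NV male (3.04 to 5.80 CPM) overlapped over the whole section.

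**Figure D1:**
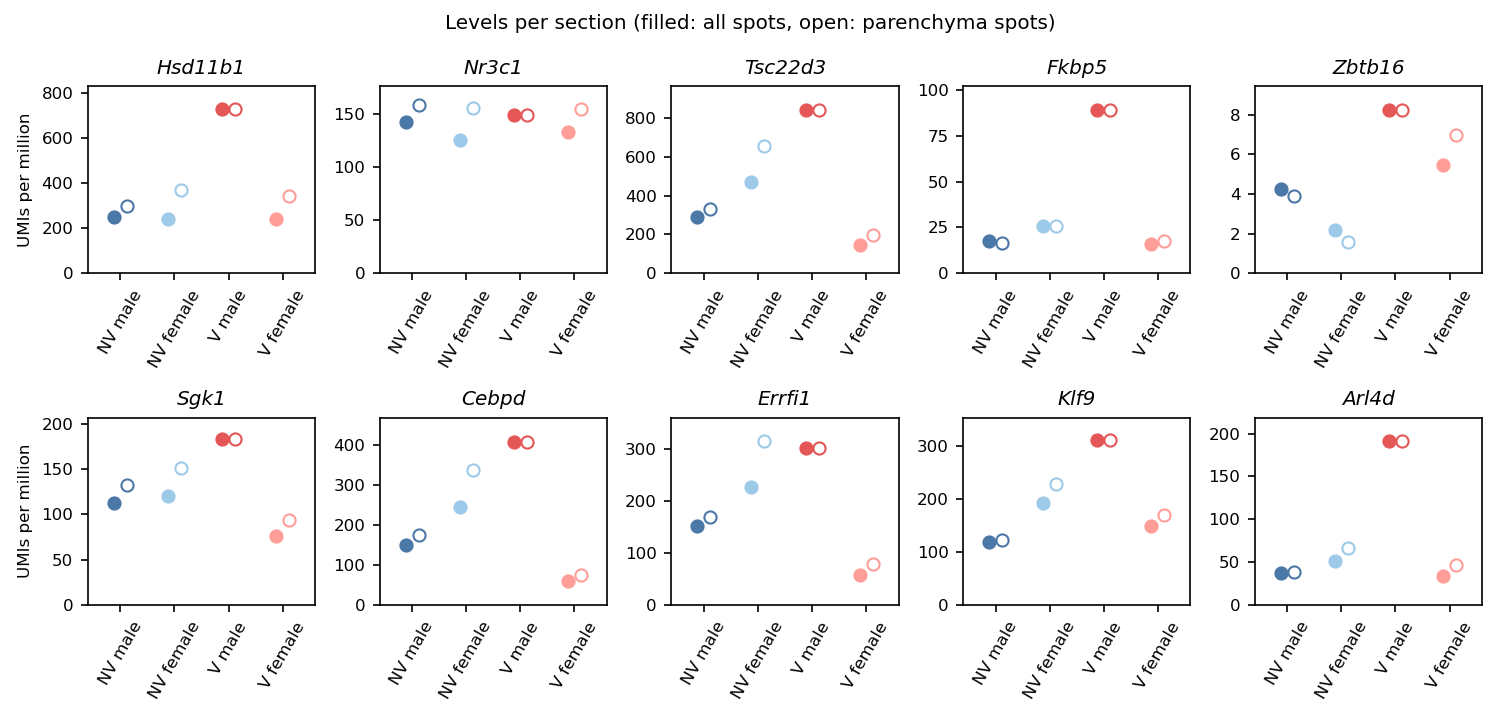
Level of each of the 10 members in CPM (y axis, from 0) in the 4 sections (x axis), over all spots (filled) and over parenchyma spots (open). Over all spots the V male is at least 1.5 times above each other section for 8 of 10 members, as for 6.85% of genes. Nr3c1 is nearly level, and the V female lies below both NV mice for Tsc22d3, Sgk1, Cebpd and Errfi1 over all spots and over parenchyma spots. These levels chose the members, and nothing is read from the count.

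Summed over the 8 response genes, the level was 881 CPM (NV male), 1331 CPM (NV female), 2338 CPM (V male) and 543 CPM (V female), and 988, 1780, 2338 and 685 CPM in the parenchyma. For 8 of 10 members, all but Nr3c1 and Zbtb16, V was above NV in the males and below NV in the females, over the whole section and in the parenchyma. That order held for 34.9% of 14382 genes with a mean of at least 1 CPM over the whole section and for 30.5% of 14248 genes in the parenchyma. For Hsd11b1 the females were level within counting error over the whole section. In the parenchyma their 95% Poisson intervals were 351 to 390 CPM (NV female) and 332 to 349 CPM (V female). TMM scaling sets samples to a common level over most genes. With it, the V female was above the NV female for Hsd11b1 over the whole section by 0.08 on the log2 scale, leaving 7 of 10 members. In the parenchyma the count stayed at 8 with TMM scaling. The V male exceeded each other section by at least 1.5 times for 8 of 10 members over the whole section, all but Nr3c1 and Errfi1, where 6.85% of genes did so, and for 3 of 10 members in the parenchyma (Hsd11b1, Fkbp5 and Arl4d), where 2.84% of genes did so. Since these levels chose the members, nothing is read from the counts.

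**Figure D2:**
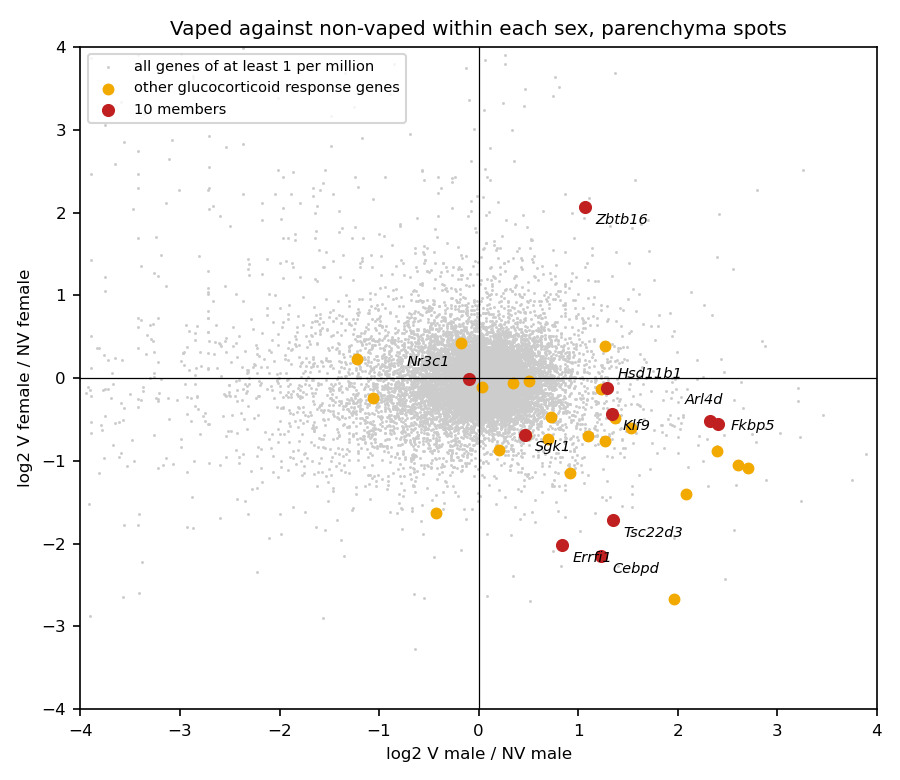
Log2 ratio of V to NV in the parenchyma in the males (x axis) and in the females (y axis), for all genes with a mean of at least 1 CPM (grey), 24 other glucocorticoid response genes (yellow) and the 10 members (red). Of the 10 members, 8 lie in the lower right field, where V was above NV in the males and below NV in the females, as for 30.5% of all these genes. Genes beyond 4 log2 units are not drawn.

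For the comparison of V with NV, UMIs were summed per mouse and tested over all genes by edgeR's quasi-likelihood test, and a gene was called when its log2 fold change exceeded 0.25 in either direction at an adjusted p (Benjamini-Hochberg) below 0.05. Of 14570 genes over the whole section, 0 (0%) were called, and of 14348 genes in the parenchyma also 0 (0%), with 248 and 380 genes at an unadjusted p under 0.05 and 8 and 10 genes called by DESeq2. All 10 members passed the filter on low counts. Of these, 0 were called by edgeR and 0 by DESeq2, which gave Zbtb16 no adjusted p in the parenchyma, and since this contrast chose the members nothing is read from these counts. The fitted log2 fold changes over the whole section ranged from -0.18 for Errfi1 to 1.24 for Arl4d, with standard errors of 0.18 for Nr3c1 and 0.40 to 0.89 for the other members. They had a median of 0.40 over the members and of 0.03 over all genes tested. In the parenchyma they ranged from -0.34 for Errfi1 to 1.41 for Zbtb16, with a median of 0.27 over the members and 0.01 over all genes.

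These fold changes rested on which V mouse was kept. Without the V male, the log2 fold change over the whole section was 0.05 for Hsd11b1, -1.29 for Tsc22d3, -0.37 for Fkbp5, -1.68 for Cebpd and -0.31 for Arl4d. Without the V female, the same genes were at 1.44, 1.01, 1.92, 0.91 and 1.98. Tsc22d3, Fkbp5, Sgk1, Cebpd, Errfi1 and Arl4d thus had opposite signs in the V mice set against the same NV pair. Counts of genes called rose from 0 to 21 without the V male and to 811 without the V female over the whole section, and to 291 and 1483 in the parenchyma, where the remaining V mouse was assumed to vary like the NV mice. Zbtb16 kept a positive value in each of these fits (0.64 to 1.61 over the whole section), with the highest value without the NV male.

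Some lists of cell type markers had the V male highest, as the response genes did over the whole section, and others did not. The 4 neutrophil markers summed to 151 CPM (NV male), 160 CPM (NV female), 580 CPM (V male) and 75.1 CPM (V female), and to 184, 258, 580 and 108 CPM in the parenchyma, which is the order of Tsc22d3 and Cebpd. Capillary endothelium markers were at 1791, 1697, 2754 and 1610 CPM, alveolar type 1 markers at 2804, 2151, 5371 and 2833 CPM, and alveolar fibroblast markers at 4050, 3254, 6076 and 2984 CPM. In the parenchyma the last 3 lists spanned 2123 to 2754, 3361 to 5372 and 4428 to 6076 CPM, with the V male highest in each. For alveolar type 1 markers the V female was above both NV mice. Over the whole section the V male was lowest for B and plasma cell markers (451, 390, 168 and 218 CPM). It was also lowest for smooth muscle markers (449, 393, 197 and 481 CPM), as for the cardiac, adipocyte and club markers given above. The part of cell types in the levels of the members was not tested. Levels moved little with depth within the V male section, where Hsd11b1 was at 683, 730 and 740 CPM and Tsc22d3 at 837, 856 and 840 CPM in the shallowest, middle and deepest spots when these were split by depth into 3 groups of nearly equal size. In the V female, where spots low in parenchyma markers were deeper, Hsd11b1 was at 341, 349 and 190 CPM and Tsc22d3 at 214, 200 and 121 CPM. In the NV female Hsd11b1 was at 283, 352 and 193 CPM and in the NV male at 206, 288 and 237 CPM, so that levels differed between depth groups in these 3 sections.

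Other genes of the pathway were followed as lists. The lists were chosen with earlier results of these data known, so their counts are a description. Among 25 further glucocorticoid response genes, none was called for V against NV, and the median log2 fold change was 0.33 over the whole section, beside 0.03 over all genes. V was above NV in the males and below in the females for 17 of 25 genes over the whole section and for 18 of the 24 with at least 1 CPM in the parenchyma, beside the 34.9% and 30.5% of all genes. Txnip, an inhibitor of glucose uptake and of thioredoxin, was at 470, 699, 1289 and 487 CPM over the NV male, NV female, V male and V female sections. Nfkbia, the inhibitor of NF-kappa-B, was at 122, 154, 336 and 91.8 CPM, and Lcn2, a siderophore-binding protein, was at 151, 158, 299 and 120 CPM. The V male was highest for all 3 genes.

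Not every gene of that list had this order. Dusp1, a phosphatase that ends MAP kinase signalling, was at 333, 252, 284 and 85.8 CPM, so that the V female was lowest and the V male lay between the NV mice. Mt1, a metallothionein, was at 236, 349, 193 and 359 CPM, and Glul, glutamine synthetase, at 219, 518, 518 and 480 CPM. Pck1, a gluconeogenic enzyme also made in adipocytes, was at 0.25 CPM in the section of the V male, where adipocyte markers were also low, and at 31.2 to 240 CPM in the other sections. Mt1, Glul and Pck1 were also among the genes higher in spots of other tissue, given further on.

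**Figure D3:**
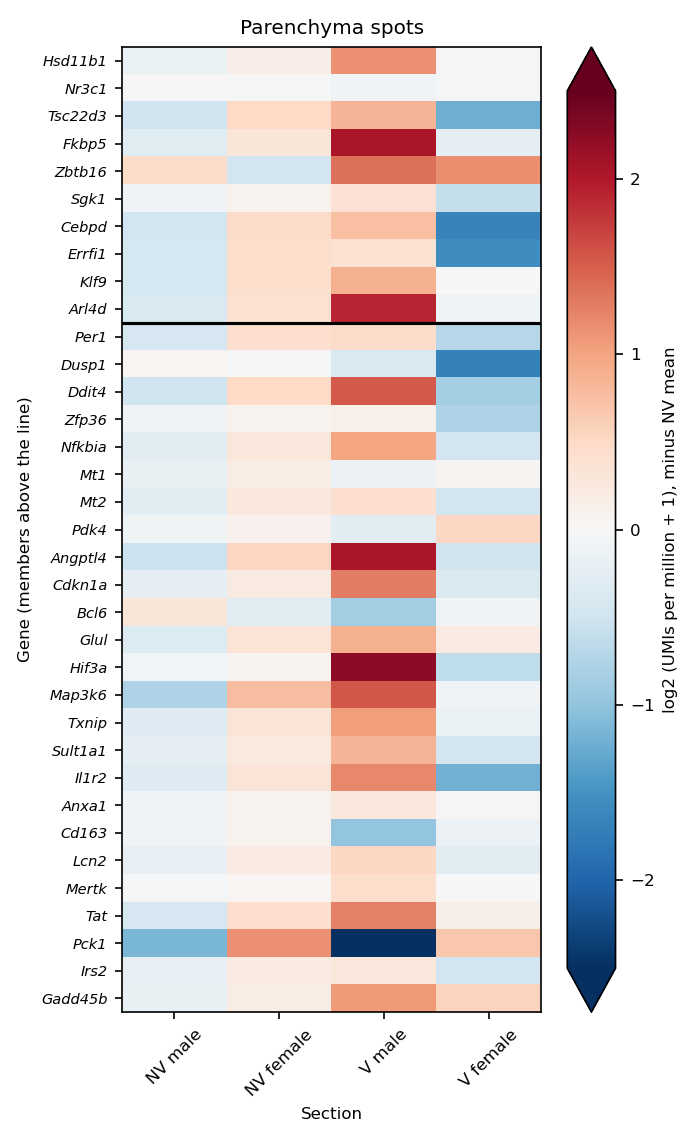
Level of the 10 members (above the line) and of 25 further response genes in the parenchyma of each section, as log2 of CPM with 1 added, minus the mean of the NV mice, in colour from -2.5 (blue) to 2.5 (red), with Pck1 in the V male below the scale. The V male column is mostly red and the V female column mostly blue, apart from Nr3c1, Zbtb16 and genes such as Pdk4 and Gadd45b.

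Among 22 genes of glucocorticoid metabolism, receptor and chaperones, which include Hsd11b1, Nr3c1 and Fkbp5, none of 21 tested was called for V against NV. The chaperones had other orders than the response genes, apart from Ptges3. Hsp90ab1, a heat shock protein that holds the receptor ready for its ligand, was at 749 CPM (NV male), 959 CPM (NV female), 471 CPM (V male) and 610 CPM (V female), with both V mice below both NV mice, and Hsp90aa1 at 327, 360, 286 and 272 CPM. Fkbp4, the co-chaperone that carries the receptor to the nucleus, was at 132, 160, 95.8 and 125 CPM, while Ptges3, another co-chaperone, was at 141, 151, 177 and 127 CPM, with the V male highest and the V female lowest.

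In the sodium channel pathway in which Sgk1 acts, 0 of 9 genes were called for V against NV. Scnn1a, the alpha subunit of the channel, was at 175, 130, 457 and 164 CPM and Scnn1g, the gamma subunit, at 42.2, 42.4, 112 and 47.7 CPM. The V male was thus highest for both, and the V female was not below the NV female as it was for Sgk1. Nedd4, a ubiquitin ligase of the family that removes the channel, was at 305, 382, 298 and 364 CPM.

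Of 10 immediate-early genes, which respond within minutes to many stimuli, 0 were called, and 9 of 10 had a negative log2 fold change over the whole section, with a median of -0.77, beside 6741 of 14570 genes and a median of 0.03 over all genes tested. Nr4a1, a nuclear receptor of this class, was at 232 CPM (NV male), 87.1 CPM (NV female), 22.4 CPM (V male) and 25.2 CPM (V female), with no overlap of the groups. Both V mice were below both NV mice for 4 of 10 of these genes over the whole section and for 9 of 10 in the parenchyma, beside 14.2% and 17% of genes with a mean of at least 1 CPM. In the parenchyma Ier3 was the exception, with 160, 152, 177 and 235 CPM. Of 12 circadian clock genes tested, 0 were called. Dbp was at 335, 294, 262 and 374 CPM and Per2, which also responds to glucocorticoid, at 37.7, 56.3, 89.5 and 44.4 CPM.

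Within a section, levels were next compared between parenchyma spots and spots low in parenchyma markers. The split by region did not choose the members, but their levels over spots did. The test results of the members by region are therefore given as a description. The comparison comprised the NV male (158 low spots), the NV female (125) and the V female (433), with the mouse as a block. The low spots were rich in cardiac muscle markers (5946 to 18643 CPM against 1768 to 2938 CPM in the parenchyma), club cell markers (3422 to 17416 CPM) and white adipocyte markers (1907 to 12578 CPM), and held 688 to 817 CPM of capillary endothelium markers against 2123 to 2442 CPM. Their median depth was 8471.5, 20585 and 33012 UMIs per spot against 9848, 9518 and 9046 UMIs in the parenchyma. The part of cell types and depth in the differences was not tested. Of 13526 genes tested by edgeR, 2540 (18.8%) were lower and 3072 (22.7%) higher in the low spots. Of the 10 members, 5 were lower and 0 higher. On total UMIs alone the median of all genes shifted to -0.45 from -0.03, so that 6977 genes were lower and 1868 higher, and the fold changes below are relative to most genes.

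Hsd11b1 was at 84.2 CPM (NV male), 85.9 CPM (NV female) and 119 CPM (V female) in the low spots, against 297, 370 and 340 CPM in their parenchyma. It fell by 1.37 on the log2 scale (SE 0.13, edgeR adjusted p = 3.23e-05) and was lower in CPM in 3 of 3 sections. Tsc22d3, at 153, 247 and 85.4 CPM in the low spots, fell by 0.82 (SE 0.12, edgeR adjusted p = 0.00037). The order of the sections for Tsc22d3 was the same in both kinds of spots, with the NV female highest and the V female lowest.

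Cebpd fell by 0.76 (SE 0.11, edgeR adjusted p = 0.00045), Errfi1 by 0.71 (SE 0.13, adjusted p = 0.0020) and Sgk1 by 0.59 (SE 0.14, adjusted p = 0.0067). All were lower in CPM in 3 of 3 sections, as were Nr3c1, Klf9 and Arl4d. CPM is not set relative to most genes as the fold changes are, and the share of all genes lower in 3 of 3 is not given. In CPM the low spots held 0.42, 0.39 and 0.50 times the parenchyma level of Cebpd in these sections. The other members did not pass the threshold. Nr3c1 had a log2 fold change of -0.30 (edgeR adjusted p = 0.0523) and Arl4d of -0.45 (adjusted p = 0.0962). Klf9 was at -0.01 (adjusted p = 0.941), Fkbp5 at 0.32 (adjusted p = 0.152) and Zbtb16 at 0.12 (adjusted p = 0.832). The level of Fkbp5 was 19.3, 25.4 and 13.7 CPM in the low spots against 16.8, 25.7 and 17.5 CPM in the parenchyma, so it was not ordered by region. When the mouse was not used as a block, Hsd11b1 alone among the members passed.

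**Figure D4:**
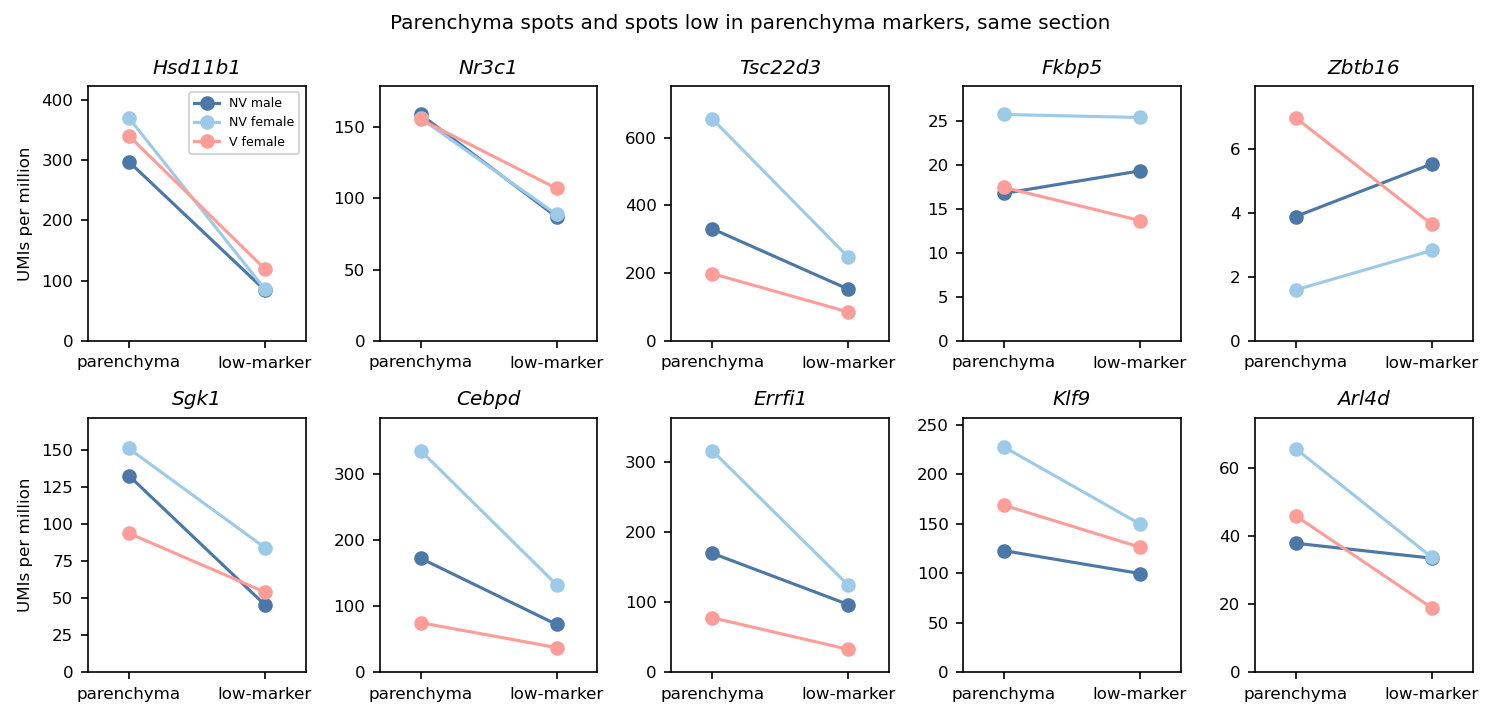
Level of the 10 members in CPM (y axis, from 0) in parenchyma spots and in spots low in parenchyma markers (x axis), with a line for each of 3 sections. Lines for Hsd11b1, Tsc22d3, Sgk1, Cebpd and Errfi1 fall in all 3 sections, as do those for Nr3c1, Klf9 and Arl4d, which did not pass the test made relative to most genes, and those for Fkbp5 and Zbtb16 have no common direction.

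The further response genes were divided between regions, with 8 of 23 tested higher and 8 lower in the low spots. Over all genes tested 22.7% were higher and 18.8% lower, and nothing is read from list counts near these shares. Pck1 (log2 fold change 2.54, SE 0.11), Pdk4 (2.39, SE 0.12) and Mt1 (1.52, SE 0.11) were higher. Pdk4 encodes a kinase that limits glucose oxidation in heart, muscle and fat. Lcn2 (-1.38, SE 0.12), Gadd45b (-1.0, SE 0.13), Dusp1 (-0.82, SE 0.11) and Nfkbia (-0.65, SE 0.10) were lower. The sodium channel subunits Scnn1a (-1.52, SE 0.15), Scnn1b (-1.69, SE 0.19) and Scnn1g (-1.97, SE 0.16) were lower as Sgk1 was, and of the 9 genes of that list 5 were lower and 2 higher. Of the metabolism and chaperone list 3 of 19 genes were lower, among them Hsd11b1, and 1 was higher, the drug transporter Abcb1b. Of the immediate-early genes 4 of 10 were lower and 1 higher, and of the clock genes 3 of 12 were lower.

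Over single spots, agreement of the response genes with Hsd11b1 was weak. Each spot was thinned to 3000 UMIs, which left 731, 421, 1363 and 1829 spots in the NV male, NV female, V male and V female. A Hsd11b1 UMI was found in 51.6%, 53.0%, 89.1% and 56.3% of these spots, and in 77.3%, 79.9%, 94.9% and 86.0% of spots without thinning. A Fkbp5 UMI was found in 5.34%, 7.13%, 21.7% and 4.48% and a Zbtb16 UMI in at most 2.64% of thinned spots, so that correlations of these genes carry little information. Pearson's r with Hsd11b1, averaged over the 4 sections, was 0.09 for Tsc22d3 (range 0.04 to 0.19), the highest of the members. It was 0.05 for Klf9, 0.05 for Errfi1, 0.03 for Sgk1, 0.03 for Nr3c1, 0.01 for Cebpd, 0.01 for Zbtb16, -0.01 for Fkbp5 and -0.02 for Arl4d. Over 4210 genes seen in at least 10% of the thinned spots of every section the median was 0.02, and Tsc22d3 ranked 98.

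Within the parenchyma these averages ranged from -0.05 for Cebpd to 0.04 for Tsc22d3, and without thinning, where depth is shared by all genes of a spot, from 0.03 for Zbtb16 to 0.31 for Tsc22d3. The level of Tsc22d3 in spots with a Hsd11b1 UMI was 1.26, 1.38, 1.04 and 1.12 times that in spots without one, in the NV male, NV female, V male and V female. In the V male, where both genes were highest as a section, spots with and without Hsd11b1 thus had nearly the same level, 850 and 818 CPM. A correlation this weak in sparse counts is no finding.

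**Figure D5:**
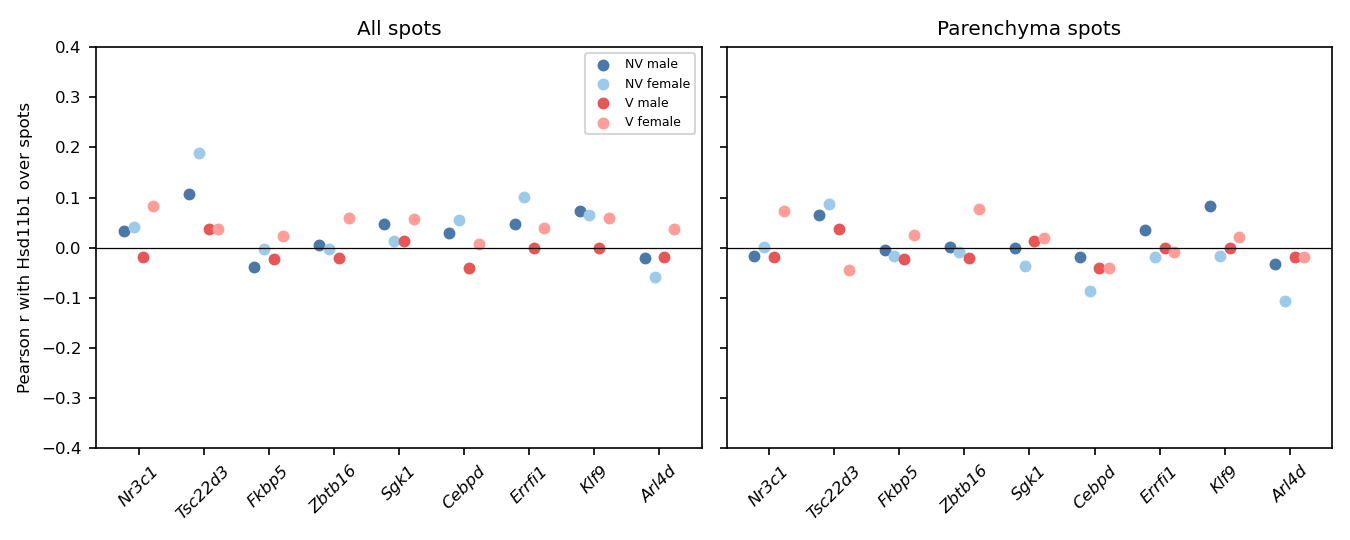
Pearson's r of each member with Hsd11b1 over spots thinned to 3000 UMIs (y axis), by gene (x axis) and section (colour), over all spots (left) and parenchyma spots (right). All values lie between -0.11 and 0.19, and the positive values of Tsc22d3 and Errfi1 in the NV female over all spots are smaller within the parenchyma.

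The genes most like Hsd11b1 over spots were Inmt, Sftpc, Lyz2, Tmsb4x, Sftpa1, Cxcl15, Actb, Sftpb, Ager and Calcrl, with a mean r of 0.22 to 0.15. Sftpc and Sftpb encode surfactant proteins and Ager marks alveolar type 1 cells. In the V male, whose section was nearly all parenchyma, r for these 10 genes was between -0.05 and 0.04. In the 10% of spots richest in alveolar fibroblast markers, Hsd11b1 was at 1.41, 2.17, 1.23 and 1.95 times its section level (NV male, NV female, V male and V female), above 1 in 4 of 4 sections. It was also above 1 in 4 of 4 sections in spots richest in capillary endothelium markers (1.28, 1.63, 1.03 and 1.61 times) and in T cell markers (1.13, 1.34, 1.04 and 1.36 times). Alveolar type 1 markers (1.36, 1.70, 0.98 and 1.65 times) and neutrophil markers (1.29, 1.60, 0.99 and 1.46 times) gave like values outside the V male. So did the parenchyma markers (1.15, 1.45, 0.91 and 1.28 times), and no cell type is singled out. In spots richest in cardiac markers it was at 0.31, 0.27, 1.02 and 0.41 times, where the V male held almost no such markers. Tsc22d3 was at 1.32, 1.59, 1.08 and 1.53 times its section level in the fibroblast-rich spots. Fkbp5 was at 0.96, 0.90, 1.2 and 0.65 times there, with no common direction. Spots richest in neutrophil markers held 1.29, 1.37, 1.05 and 1.28 times the section level of Tsc22d3 and 1.06, 1.25, 0.95 and 1.46 times that of Cebpd.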

How the data were processed

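The authors aligned reads of 4 Visium sections with Space Ranger to the 10x mouse reference (mm10) and deposited raw UMI counts for every gene in each spot under tissue, as 1 table per section. Per the labels, Seurat 4.0.3 was also used, but its output was not part of these counts. The members and lists were chosen with earlier results of these data known. Levels are UMIs per 1000000 UMIs of the total (CPM). UMIs were summed per mouse and region and compared by the quasi-likelihood test of edgeR 4.0.16 (R 4.3.3) after filterByExpr and TMM scaling, with Benjamini-Hochberg adjustment. Regions with fewer than 50 spots were left out. For correlations, spots were thinned to 3000 UMIs, spots below that left out (52 to 224 per section), and log2(CPM + 10) used. The sections shared 277 to 1167 barcodes per pair, since the slides carry the same barcode set.

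All members were named, together with the called genes of each list (at most 6 per direction), the 6 genes of each list with the highest mean level and the 10 genes most like Hsd11b1. Other genes of a list were named after their values had been seen. Coordinates are from GENCODE vM21 (GRCm38) and promoter windows from RefSeq. Alternatives comprised DESeq2 1.42.0, other scalings and filters, leaving out each mouse, a block for the replicate number and other region thresholds. The main edgeR fits alone were run on simulated counts, with 200 genes changed and a fixed dispersion (spread between mice) of 0.05. They recovered 92% (whole section), 92.5% (parenchyma) and 98% (region) of these genes, with 6, 15 and 10 false calls. The dispersion fitted for V against NV was larger, so no power for that comparison is read from this. An exact permutation test of 2 against 2 mice cannot pass the threshold, and p-values measure the spread between these sections. Positions of spots on the slide were not analysed here.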

Additional observations from a re-analysis of the deposited data

Results flagged for a closer look

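For 8 members, V was above NV in the males and below NV in the females over the whole section. That order held for 34.9% of 14382 genes with a mean of at least 1 CPM. Each effect rests on 1 mouse per sex and group, and the difference between the sexes was not tested. The log2 ratio of V to NV in the males exceeded that in the females by 3.51 for Cebpd, 3.21 for Tsc22d3, 3.06 for Fkbp5, 2.98 for Errfi1 and 2.97 for Arl4d. It did so by 1.77 for Klf9, 1.56 for Hsd11b1 and 1.37 for Sgk1. For Hsd11b1 the direction in the females was within counting error and turned with TMM scaling.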

How the results depend on the processing

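The count of 0 genes called for V against NV held with DESeq2 size factors, with total UMIs alone, with spots of at least 500 UMIs and without either NV mouse. DESeq2's Wald test called 8 genes over the whole section and 10 in the parenchyma, and without a filter on low counts 5 genes were called in the parenchyma. Leaving out each mouse in turn gave 0 to 811 calls over the whole section and 0 to 1483 in the parenchyma, with the upper end without the V female. The replicate numbers do not pair mice (1 stands for the male and 2 for the female), and male-minus-female differences of V and NV correlated at r = 0.32 over the whole section and 0.05 in the parenchyma across genes. With the replicate block 0 genes were called in both. For low against parenchyma spots, 5612 genes were called, 8845 with total UMIs alone and 4245 to 5898 without each mouse. The results of the members by region stay a description, since their levels over spots chose them. Among the members, Hsd11b1 passed in all 10 alternatives, and Tsc22d3, Sgk1, Cebpd and Errfi1 in all but the fit without the mouse block. Nr3c1 passed in 4 alternatives and Arl4d in 4, Klf9 with total UMIs alone and Fkbp5 (higher) without the V female. With total UMIs alone Hsp90ab1 (-0.28), Ncor1 (-0.43) and Txnip (-0.40) turned to lower, since that scaling shifts all genes, and at a region threshold of 25%, which leaves out the NV male, Egr1 was at -0.14, and the cause was not tested. The median r of the response genes with Hsd11b1, averaged over sections, was 0.03, 0.18 without thinning and -0.0047 in parenchyma spots only. Zbtb16 rests on 15 to 187 UMIs per section, and its levels are limited by depth.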
